A study of Mus musculus with 5 samples.

Results

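Myelin and glial junction genes were followed through the conversion of mouse embryonic fibroblasts (MEFs) to neuron-like cells. The members were 8 genes, Pmp22, Mbp, Mal, Cnp, Gjc3, Cldn11, Prx and Fa2h, chosen by symbol as structural genes of myelin and of glial junctions, of the 27729 genes in the files. All 8 were matched to an Ensembl gene. The measurements are of RNA, and no protein was measured.

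MEFs of the ICR strain were taken from embryos without heads and internal organs. Day 0 was a library of MEFs in serum-containing MEF medium, and days 2, 5, 10 and 14 were libraries of MEFs moved to a defined serum-free medium. This medium is named 5C in the study and 6C in the labels, and is DMEM/F12 with N2 supplement, the growth factor bFGF, the cytokine LIF, ascorbate and a reducing agent. The conversion used the medium alone, with no introduced gene. There was 1 library per day (n = 1), so no difference below has a replicate check and no p-value was computed. The intervals given are exact Clopper-Pearson intervals at 95% and cover counting error only. The 5 libraries held 2253748 to 3890334 expected counts, and the day 2 library was the shallowest. Taking 3 counts as the limit, a count of 0 allowed a level of up to 0.771 to 1.33 CPM, depending on the library.

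Myelin is the membrane that Schwann cells in nerves and oligodendrocytes in the brain wrap around axons. Its compacted layers are held by membrane and adaptor proteins such as PMP22, MBP and MAL, and its uncompacted channels hold CNP. Gap junction and tight junction proteins, among them connexin 29 (Gjc3) and claudin-11 (Cldn11), join membranes of the sheath or seal the space between its layers. In Schwann cells SOX10 acts with EGR2 to switch on many of these genes at myelination.

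The members did not move as 1 group. Cnp, Gjc3, Cldn11 and Mal were near or below 30 expected counts on day 0 and were 39.1-fold or more above it on days 10 and 14. Pmp22 was already abundant in MEFs and peaked on day 10. Mbp was low on day 0, highest on day 10 and intermediate on day 14. Prx stayed within 2-fold of day 0 from day 5 onward, and Fa2h had at most 2 expected counts in any library. In the plot of counts by day, Cnp, Gjc3 and Cldn11 stay high on day 14 while Pmp22, Mbp and Mal drop.

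**Figure D1:**
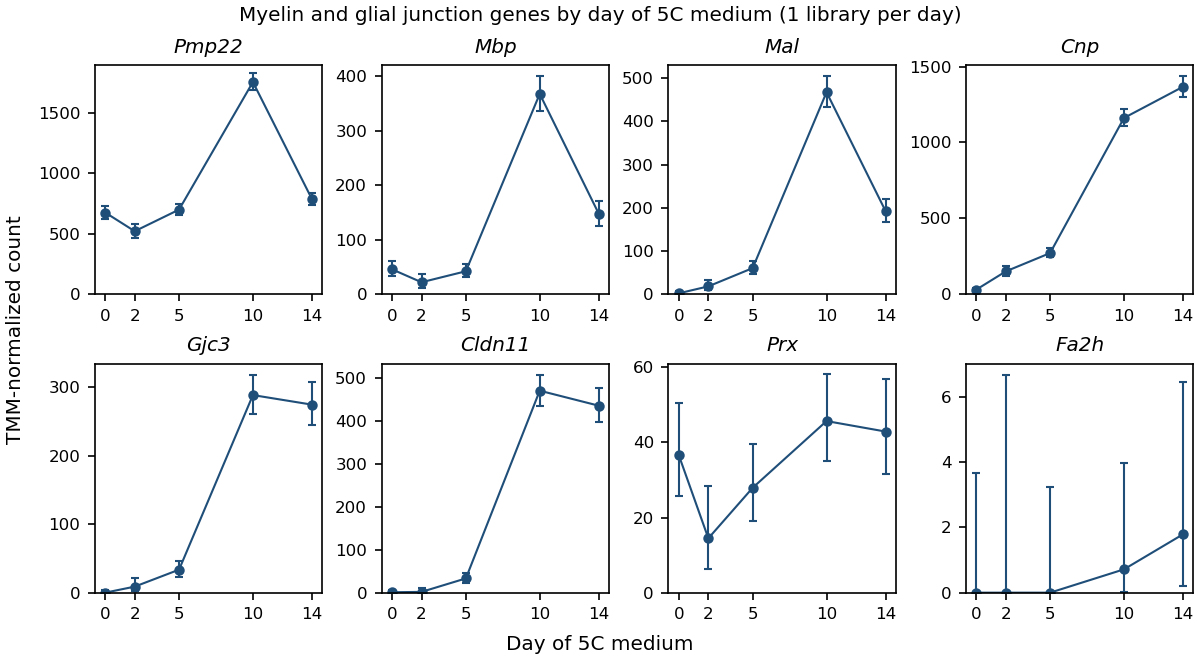
TMM-normalized count (expected count divided by library size and composition factor; vertical axes, linear and scaled per gene) against day of 5C medium (horizontal axes) for the 8 genes. Points are single libraries and bars are 95% counting intervals; Pmp22, Mbp and Mal peak on day 10 at 1756, 368 and 468, and Cnp is highest on day 14 at 1367.

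Stretches just upstream of the annotated starts of Cnp, Gjc3, Cldn11 and Mal are shown because these genes had the largest increases, and because the first 3 stayed high on day 14 while Mal did not. The sequences are from RefSeq on GRCm38.p6, 5′ to 3′ on the strand of the gene, and end at the base before the first exon of GENCODE M21. For Cnp this exon begins upstream of the RefSeq start. Cnp is chr11:100574689-100574903 on the plus strand, Gjc3 is chr5:137963099-137963348 on the minus strand, Cldn11 is chr3:31149670-31149919 on the plus strand and Mal is chr2:127656696-127656945 on the minus strand. Capitals mark ACAAAG, a core that SOX proteins can bind.
Cnp: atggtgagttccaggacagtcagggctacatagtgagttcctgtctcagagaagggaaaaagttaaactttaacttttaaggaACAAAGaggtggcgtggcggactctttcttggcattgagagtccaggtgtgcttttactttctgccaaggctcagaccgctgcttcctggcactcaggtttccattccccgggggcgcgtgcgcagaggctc
Gjc3: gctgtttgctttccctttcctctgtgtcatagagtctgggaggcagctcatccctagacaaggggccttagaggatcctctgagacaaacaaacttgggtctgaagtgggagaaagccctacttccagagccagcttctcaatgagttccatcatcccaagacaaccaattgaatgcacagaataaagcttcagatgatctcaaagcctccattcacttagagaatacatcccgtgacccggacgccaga
Cldn11: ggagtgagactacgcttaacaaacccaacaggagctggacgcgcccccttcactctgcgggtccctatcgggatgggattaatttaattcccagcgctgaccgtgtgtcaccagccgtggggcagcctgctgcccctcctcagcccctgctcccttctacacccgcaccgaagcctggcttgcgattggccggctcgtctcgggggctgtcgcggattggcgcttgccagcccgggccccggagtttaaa
Mal: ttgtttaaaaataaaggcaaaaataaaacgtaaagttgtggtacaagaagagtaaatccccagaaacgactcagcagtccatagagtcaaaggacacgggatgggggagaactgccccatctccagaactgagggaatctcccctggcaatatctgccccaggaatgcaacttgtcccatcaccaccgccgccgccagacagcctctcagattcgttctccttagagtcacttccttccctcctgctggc

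Windows of 300 bases around RefSeq starts were searched on both strands for 3 Sox core sequences and 1 EGR core. The Sox cores were ACAAAG, the variant ACAATG and the form AACAAT, which can overlap the second by sharing letters. The EGR core was GCGTGGG. Mbp was left out of this search, and Fa2h had no window. The other 6 members had 1 or more windows each, 9 windows in all. Distances were taken from the RefSeq start. ACAAAG lay 167 bases before the RefSeq start of Cnp on the plus strand, and no other of the 9 windows held a Sox core. The 3 Sox cores were present in 18.7%, 12.6% and 10.7% of all 32817 windows, respectively. GCGTGGG lay 19 bases after the RefSeq start of Cnp, and 161 bases before that of Prx on the minus strand, and was present in 5.04% of all windows. These matches describe letters only, and no binding was measured.

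Sox10, the transcription factor of neural crest and Schwann cells, had 7, 12, 320, 1478 and 2230 expected counts in the order of the days (0, 2, 5, 10, 14), the order used for every list of 5 values. It was higher at each later time point than at the one before. Egr2, which drives myelination, had 23, 7, 16, 82 and 181 expected counts, so it stayed under its day 0 count until day 10. Day 14 was 7.11-fold above day 0 for Egr2 (interval 4.59 to 11.5).

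Cnp encodes the 2',3'-cyclic nucleotide phosphodiesterase of uncompacted myelin (ENSMUSG00000006782, GRCm38 chromosome 11, 100574904 to 100591729, plus strand). Its expected counts were 30, 83, 310, 1626 and 1530 in the order of the days. It was 5.06-fold above day 0 on day 2 (interval 3.30 to 7.96) and 9.14-fold above it on day 5 (6.27 to 13.8). On day 10 it was 39.1-fold above day 0 (27.3 to 58.2) and on day 14 46.1-fold (32.1 to 68.5). An exon of Cnp overlaps Dnajc7, a chaperone gene on the other strand, by 154 bases, and the kit did not mark strand. Dnajc7 had 223 to 690 expected counts, highest on day 0, and its share in the Cnp counts was not tested.

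Gjc3 encodes connexin 29, found in the inner membrane of myelin sheaths (ENSMUSG00000056966, chromosome 5, 137953461 to 137963098, minus strand). It had 0, 4.87, 38.3, 404 and 307 expected counts. With the day 0 library set to the limit of 3 counts, Gjc3 was 97.1-fold higher on day 10 and 92.4-fold higher on day 14. The counting intervals of the ratios to the day 0 count of 0 began at 78.7 and 74.7, and had no upper end. Its expected count on day 2 was small, and the level on day 5 was 3.68-fold above day 2 (interval 1.44 to 12).

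Cldn11 encodes the claudin that forms tight junction strands between layers of central myelin and between Sertoli cells of the testis (ENSMUSG00000037625, chromosome 3, 31149920 to 31164324, plus strand). It had 1, 1, 38, 660 and 488 expected counts. No difference between day 0 and day 2 was detectable at 1 count each. Day 5 was 33.6-fold above day 0 (interval 5.68 to 1362) and day 10 476-fold (85.2 to 18838), with the width set by the single count on day 0. The step from day 5 to day 10 was 14.2-fold (10.2 to 20.2), larger than that of any other member.

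Mal encodes a proteolipid that sorts membrane in myelinating glia, epithelia and T cells (ENSMUSG00000027375, chromosome 2, 127633226 to 127656695, minus strand). It had 2, 10, 69, 655 and 215 expected counts. Its level was 9.14-fold above day 0 on day 2 (interval 1.95 to 85.8), 236-fold on day 10 (65.2 to 1955) and 97.1-fold on day 14 (26.6 to 807). The summed TPM (a level scaled to transcript length and library size) of 10 epithelial markers was 110, 105, 45.5, 19.3 and 7.78, and 2 of the 3 kept were over 2-fold above day 0 on day 2. The summed TPM of 9 T cell and endothelial markers was 23.1, 13.1, 9.78, 7.32 and 4.80. The part of these cells in the Mal counts was not tested.

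Pmp22 encodes a four-span protein of compact peripheral myelin that fibroblasts also make (ENSMUSG00000018217, chromosome 11, 63128982 to 63159547, plus strand). It had 683, 288, 800, 2459 and 879 expected counts. After normalization day 2 was 0.771 of day 0 (interval 0.669 to 0.886), day 5 was 1.04-fold day 0 (0.934 to 1.15), and day 10 was 2.60-fold above it (2.39 to 2.83). By day 14 the ratio to day 0 was 1.16 (1.05 to 1.29). On the TPM scale, which moved the median of all genes kept up by 0.90 (log2) on day 14, Pmp22 was 1.12 (log2) above day 0.

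Mbp encodes the cytoplasmic adaptor that closes compact myelin (ENSMUSG00000041607, chromosome 18, 82475146 to 82585637, plus strand). It had 46.2, 12.1, 48.1, 515 and 165 expected counts. The ratio to day 0 was 0.477 on day 2 (interval 0.230 to 0.915) and 0.923 on day 5 (0.603 to 1.41), then 8.08 on day 10 (5.97 to 11.2) and 3.24 on day 14 (2.32 to 4.60). Mbp therefore began to exceed day 0 between day 5 and day 10, later than Cnp, Gjc3, Cldn11 and Mal. On the TPM scale the day 5 value was 0.96 (log2) above day 0 rather than 0.12 below it.

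The length of the Mbp RNA also differed between days. Mbp has 2 groups of starts, the upstream start of the Golli transcripts, made by many cells, and downstream starts of the transcripts for classic myelin basic protein. In the annotation 3 transcripts began at the upstream start, 1685 to 4797 bases long, and 12 began downstream, 354 to 2070 bases long. The mean transcript length that RSEM, the program that shared reads among transcripts, assigned to Mbp was 3375, 3678, 2601, 2037 and 2061 bases. On days 0, 2 and 5 the mean was above the length of every downstream transcript, so with these annotated lengths part of the RNA was placed on upstream ones there. On days 10 and 14 it was just under the longest downstream transcript, which does not fix the mixture. The ratio of day 10 to day 0 was 0.603, and the mean length shortened by as much or more in 98 of 10754 genes (0.911%) with 10 or more expected counts on both days. The annotation given to RSEM was not used here, and the lengths in the files were within 10% of the annotated ones in 85.7% of 3954 genes with a single transcript. The split is an estimate from 46.2 counts on day 0 and 12.1 on day 2, and the files give no counts per transcript here.

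**Figure D2:**
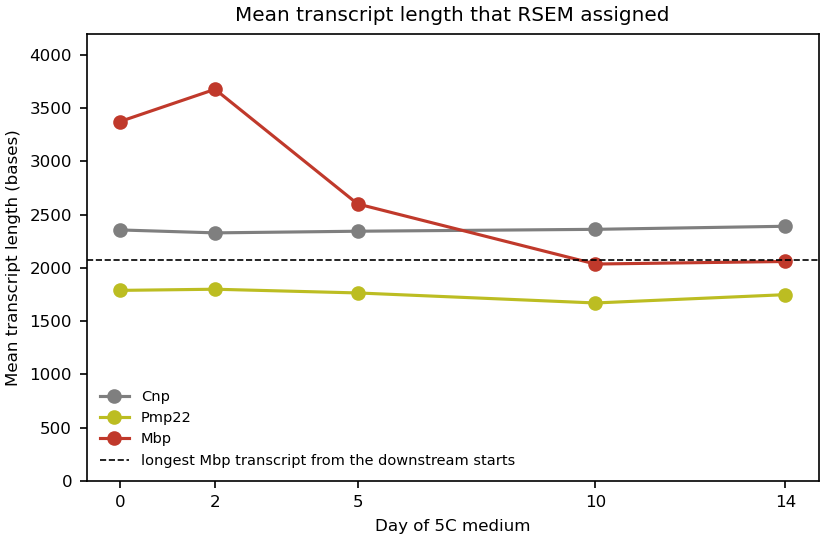
Mean transcript length in bases (vertical axis) against day of 5C medium (horizontal axis) for Mbp, Cnp and Pmp22, 1 library per point, with a dashed line at 2070 bases for the longest downstream Mbp transcript. Mbp goes from 3375 bases on day 0 to 2037 on day 10, while Cnp stays between 2329 and 2391 and Pmp22 between 1671 and 1800.

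Prx encodes periaxin, a scaffold that ties the outer Schwann cell membrane to the basal lamina (ENSMUSG00000053198, chromosome 7, 27499324 to 27520214, plus strand). It had 37, 8, 31.9, 64 and 48 expected counts. Day 2 was 0.395 of day 0 (interval 0.159 to 0.862), and no difference from day 0 was detectable on day 10 (ratio 1.25, 0.820 to 1.92) or day 14 (1.17, 0.747 to 1.85). On the TPM scale Prx was 1.44 and 1.08 (log2) above day 0 on days 10 and 14, where the medians of all genes kept were 1.25 and 0.90. Prx shares 300 exon bases with Gm15541 on the other strand, which had at most 8.79 expected counts, on day 0.

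Fa2h encodes the hydroxylase that makes the 2-hydroxy fatty acids of myelin galactolipids (ENSMUSG00000033579, chromosome 8, 111345135 to 111393824, minus strand). It had 0, 0, 0, 1 and 2 expected counts. These counts are at or under the limit of 3, so no fold is given. Its change was not detectable at this depth, and it was the only member below the minimum of 10 expected counts in at least 1 library.

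The other 7 members were among the 13346 genes that passed this minimum, and were counted at a 2-fold threshold on TMM-normalized counts with 1 added. On day 2, 3 of them (Cnp, Mal and Gjc3) were above day 0, against 15.2% of all genes kept, and 2 (Mbp and Prx) were below, against 13.1%. The call of Mbp, at -1.03 (log2), ended with upper-quartile factors (-0.97), quantile normalization (-0.99) and a pseudocount of 5 (-0.92). On day 5, 4 were above, against 20.2%, and 0 below, against 13.6%. On day 10, 6 were above, against 28.7%, with 0 below, against 22.3%, and Prx was the exception. On day 14, 5 were above, against 24.5%, with 0 below, against 19.9%. Between neighbouring time points, 3 (Mal, Gjc3 and Cldn11) passed 2-fold upward from day 2 to day 5, against 19%, and 6, all but Prx, from day 5 to day 10, against 12.8%. Downward, 0 passed at either step, against 12.5% and 9.5%. A member that passed the minimum only through its late counts had to be higher late, so these counts describe the members and were not tested. The median change of the 7 members was 5.24 (log2) on day 10 and 5.48 on day 14, and that of all genes kept 0.14 and 0.07.

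**Figure D3:**
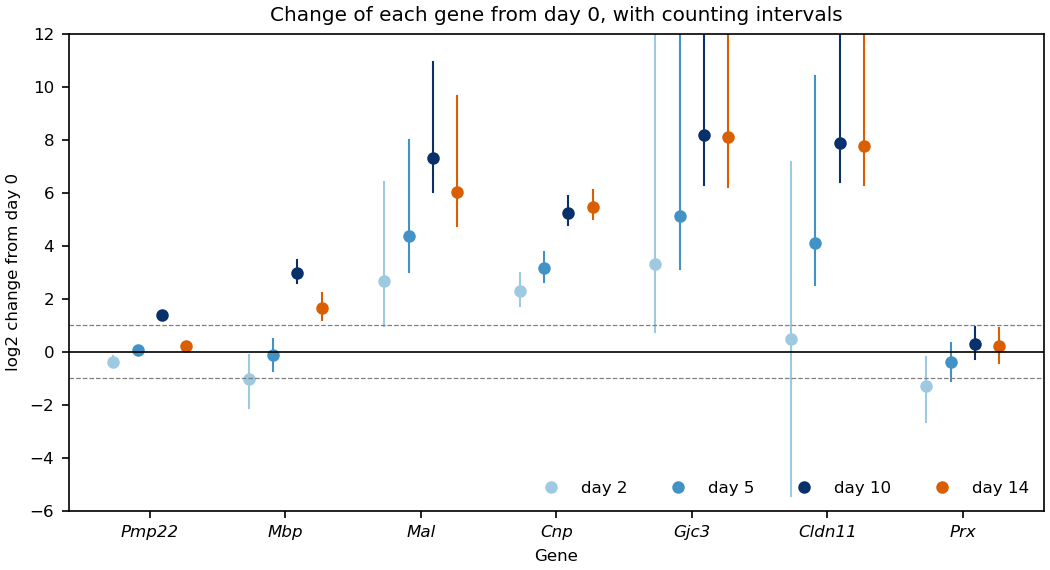
The log2 change from day 0 (vertical axis, TMM-normalized counts with 1 added) for 7 genes (horizontal axis) on days 2, 5, 10 and 14. Points are single libraries against the day 0 library, vertical lines are 95% counting intervals of the ratio without the added count (cut at the top of the axis where day 0 had 0 or 1 count), and dashed lines mark 2-fold; Cnp, Gjc3, Cldn11 and Mal sit above 5 on days 10 and 14, and Prx stays within 2-fold on days 5, 10 and 14.

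Counts on the TPM scale were 3, 4, 7 and 7 above at the 4 later time points, the added ones being Prx on day 10 and Pmp22 and Prx on day 14. On that scale 56.6% of all genes kept were above day 0 and 7.34% below on day 10, and 47% and 8.3% on day 14, so most genes lay higher. Genes also differed by length. On day 10 the median change was -1.09 (log2) for genes with a mean length under 1500 bases, 0.25 for 1500 to 5000 bases and 1.02 for longer ones. The mean lengths of the 7 members ran from 1755 bases (Pmp22) to 4730 bases (Prx), all in the middle class, and the part of length in their values was not tested.

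Levels were compared between genes on the TPM scale. On day 0 Pmp22 stood at 134 TPM, 28.0 times Mbp (interval 20.8 to 38.6), the next in order. Mbp (4.76 TPM), Cnp (4.44) and Prx (2.80) followed, and neighbours among these 3 did not differ beyond counting error. Mal (0.25), Cldn11 (0.19), Gjc3 (0) and Fa2h (0) were lowest. On day 10 the order was Pmp22 (833 TPM), Cnp (389), Cldn11 (203), Mbp (143), Mal (133), Gjc3 (64.9), Prx (7.76) and Fa2h (0.36), with Mbp and Mal not separated by counting error. On day 14 Cnp (370 TPM) was 1.27 times Pmp22 (291; interval of the ratio 1.17 to 1.38), and Cldn11 (153) came next. Gjc3 (50.4), Mbp (46.3) and Mal (44.7) were then indistinguishable as neighbours, with Prx (6.04) and Fa2h (0.70) at the end. The summed TPM of the 8 members was 146, 110, 340, 1775 and 962 on the 5 days, and Pmp22 made up most of it on day 0.

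The step from day 10 to day 14 uses no day 0 library. Pmp22 was 2.23-fold lower on day 14 than on day 10 (interval 2.07 to 2.42), Mbp 2.49-fold lower (2.09 to 2.99) and Mal 2.43-fold lower (2.08 to 2.85). These 3 of the 7 members passed 2-fold downward, against 8.33% of all genes kept, and 0 passed it upward, against 4.73%. Gjc3 had a ratio of 0.951 (0.817 to 1.11), Cldn11 0.926 (0.822 to 1.04) and Prx 0.939 (0.632 to 1.39), with no difference detectable. Cnp had a ratio of 1.18 (1.10 to 1.26) by normalized counts but was slightly lower on day 14 by TPM (389 and 370).

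Among the other myelin structural genes, 7 of 11 kept were over 2-fold above day 0 on day 10 and 8 of 11 on day 14, while 1 and 0 were below. Of all genes kept, 28.7% and 24.5% were above on these days, and 22.3% and 19.9% below. The median change of the 11 genes was 4.22 (log2) on day 10 and 2.66 on day 14. Mag, an adhesion protein that faces the axon, had 0, 5.65, 4, 178 and 24 expected counts and was 5.93-fold lower on day 14 than on day 10 (interval 3.86 to 9.49). Gpm6b, a membrane glycoprotein of neurons and glia, had 28, 23, 375, 2343 and 1079. Pmp2, a fatty acid binding protein of peripheral myelin that was picked after its values were seen, had 4, 1, 11.1, 190 and 34. From day 10 to day 14, 3 of the 11 passed 2-fold downward, against 8.33% of all genes kept. Upward, 2 passed it, against 4.73%, and the median change of the 11 was -0.16 (log2). Mag and Pmp2 were among the 3 that passed downward. Mobp, Ermn, Opalin and Omg were at 0 in every library.

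The partners of periaxin at the basal lamina were counted as 13 genes of the dystroglycan complex, laminin receptors and laminin chains. On day 10, 10 of the 13 were over 2-fold above day 0, and on day 14 6 of 13, with 0 below on either day. Of all genes kept, 28.7% and 24.5% were above on these days, and 22.3% and 19.9% below. On the TPM scale the day 14 count was 10, against 47% of all genes kept. By normalized counts, 51.2% of genes kept with mean lengths over 5000 bases were over 2-fold above day 0 on day 10. The day 14 share of these long genes was 34.5%. Some of the 13, such as Utrn and Lama2, are that long, and the part of length was not tested. Dag1, which encodes dystroglycan, had 32, 10, 313, 2406 and 1521 expected counts. Drp2, which links periaxin to dystroglycan, had 7, 5, 12, 16 and 8, with a day 10 ratio of 1.65 (interval 0.642 to 4.74). Itgb4, a laminin receptor subunit of the outer Schwann cell membrane, had 362 on day 10 and 142 on day 14, after 10 on day 0. Sgcb, a sarcoglycan, had 81 on day 0, 501 on day 10 and 320 on day 14. Dmd had 26, 6, 35, 307 and 99, and was the gene nearest to Mbp in its pattern. From day 10 to day 14 the median change of the 13 genes was -0.84 (log2), and that of all genes kept 0.02. At this step 5 passed 2-fold downward, against 8.33% of all genes kept, and 0 upward, against 4.73%.

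Genes of the node and of axon-glia contact were over 2-fold above day 0 in 10 of 14 cases on day 10 and 9 of 14 on day 14, with 2 below on each day. Of all genes kept, 28.7% and 24.5% were above on these days, and 22.3% and 19.9% below. Cadm4, the adhesion molecule of the glial internode, had 56 expected counts on day 0, 5085 on day 10 and 5966 on day 14. Gldn, which gathers sodium channels at nodes, had 15, 397 and 834, and L1cam, an adhesion molecule of neurons and non-myelinating Schwann cells, 16, 2138 and 1541. Cadm1, a partner of the same family as Cadm4, had 19, 883 and 1162.

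Lipid synthesis genes of myelin were split in direction on normalized counts, in shares near those of all genes kept. Of 13 kept, 3 were above and 3 below day 0 on day 10, against 28.7% and 22.3% of all genes kept. On day 14, 3 were above and 2 below, against 24.5% and 19.9%. The median change was 0.14 and 0.15 (log2) on the 2 days. On the TPM scale 8 were above on day 14, against 47% of all genes kept. Gal3st1, which adds sulfate to galactolipids to make sulfatide, had 4, 14, 48, 257 and 166 expected counts. Ugt8a, which makes the galactolipid that Gal3st1 acts on, had 1, 0, 0, 9 and 2, and with Fa2h stood near 0. Elovl6, a fatty acid elongase, had 72 on day 0 and 435 and 211 on days 10 and 14. Gltp, a glycolipid carrier, had 97, 395 and 271, and Cers6, a ceramide synthase, had 212, 123 and 83.

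In the PMP22 and EMP family, 6 genes were in the files, and Emp3 had the highest TPM of them on day 0 (491) and on day 14 (1017), above Pmp22 (134 and 291). On day 10 Pmp22 was the higher of the pair, at 833 TPM against 668 for Emp3. Emp1 had 264 and 477 TPM on days 0 and 14. The TPM scale moved the median of all genes kept up by 1.25 (log2) on day 10 and 0.90 on day 14. By normalized counts Emp3 was 1032, 636 and 1177 on days 0, 10 and 14, and Emp1 2038, 1722 and 2006. Emp2 was above day 0 on both scales, with normalized counts of 99.5, 673 and 655. Emp2 had 10.2 TPM on day 0, 155 on day 10 and 123 on day 14, whereas Perp, a desmosome-associated relative, had 87.4 on day 0, 234 on day 5 and 45.7 on day 14. In the MAL family, Cmtm5 had 1.23 TPM on day 0, 66.8 on day 10 and 49.0 on day 14, and Cmtm3 84.1, 269 and 294. Myadm (145, 95.4 and 69.3 TPM) and Cmtm7 (106, 65.9 and 59.8) were lower late. Cmtm6 had 7.17, 42.1 and 30.3 TPM, and Mall was at 0 in every library.

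Gjc3 joined a connexin pool held by Gja1, connexin 43, in every library. Gja1 stood at 63.5, 113, 147, 131 and 94.3 TPM on the 5 days, and Gjc1, connexin 45, at 8.88, 6.49, 28.3, 54.5 and 52.7. By normalized counts Gja1 was 560, 1192, 791, 513 and 453, so below day 0 on days 10 and 14. Gjc1 was above day 0 on both scales, with normalized counts of 47.5 on day 0, 139 on day 10 and 161 on day 14. Gjc3 stood at 0, 0.73, 5.5, 64.9 and 50.4 TPM. Gjb1, connexin 32 of myelin channels, had at most 1 expected count.

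Cldn11 had the highest TPM of the claudins on days 10 and 14. Cldn12 was the highest claudin on day 0 at 14.6 TPM and stood at 9.23 TPM on day 14. Cldn15 stood at 0.76, 10.7, 23.5, 40.9 and 53.8 TPM, and Cldn11 at 0.19, 0.29, 10.4, 203 and 153. Cldn19, the claudin of Schwann cell junctions, had at most 7 expected counts.

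**Figure D4:**
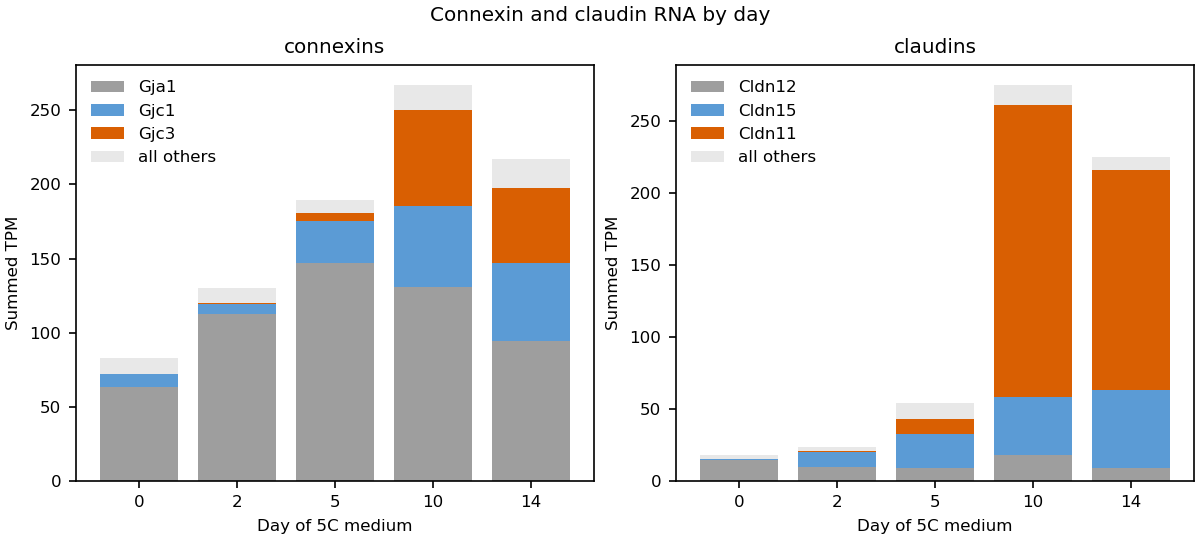
Summed TPM (vertical axes, from 0) by day of 5C medium (horizontal axes) for the connexins (left) and claudins (right), 1 library per bar, with 3 genes of each family in colour and all others in light grey. Gja1 remains the largest connexin on every day (94.3 TPM on day 14, against 50.4 for Gjc3), while Cldn11 makes up 203 of 275 TPM of claudins on day 10.

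The genes nearest to each member in pattern were searched for in a set of 8256 genes that reached 100 expected counts in some library, by the root mean square difference of the log2 changes over the 4 later days. A distance near 0 means that both genes changed by similar amounts. Mal, Gjc3, Cldn11 and their nearest genes each had at most 4 expected counts on day 0. With 1 added to such counts, the change mostly carries the later level, so a small distance there means similar later levels. Nearest to Cnp were Gal3st1 (0.29), Arap3 and Islr, and nearest to Mbp were Dmd (0.20), Bach1 and Nek1. Nearest to Cldn11 were Cdh19 (0.39), a cadherin of Schwann cell precursors, B3galt2 and Plekhb1. Among the nearest to Gjc3 were Scara5 (0.35) and C3, nearest to Mal were B3gat1 (0.42), Sema3g and Slfn5, and nearest to Pmp22 were Ncor1 (0.12), Qser1 and Dido1. No member was among the 3 nearest of another. The closest pair of members was Pmp22 and Prx (0.73), followed by Mbp and Pmp22 (1.13).

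Markers of several cell types moved over the same days, and their part in the members' values was not tested. In bulk samples, fewer cells of a type and less RNA per cell cannot be told apart. Of 17 kept markers of Schwann cell precursors and immature Schwann cells, 15 were over 2-fold above day 0 on day 10 and on day 14. Of all genes kept, 28.7% and 24.5% were. On day 10, 0 of the 17 were below, against 22.3%, and on day 14, 1 was, against 19.9%. This was Ncam1, with 308, 258 and 42 expected counts on days 0, 10 and 14, and Fabp7 had 24, 19 and 18. The summed TPM of the 18 markers listed was 91.0, 142, 583, 3416 and 3769. Cdh19 had 4 expected counts on day 0, 1178 on day 10 and 1295 on day 14, and Ngfr, the low-affinity neurotrophin receptor, 35.2, 3473 and 4518. Gfap, a filament of astrocytes and non-myelinating Schwann cells, had 0, 308 and 150. Of 23 kept regulators, 12 were above day 0 on day 10 and 13 on day 14, with 3 below on each day. Sox2 had 3, 274 and 556 expected counts on days 0, 10 and 14, Foxd3 8, 370 and 786, and Notch1 40.3, 682 and 505. From day 10 to day 14, 6 of the 23 regulators passed 2-fold upward, against 4.73% of all genes kept, and 0 downward, against 8.33%. These 6 were Sox2, Foxd3, Jun, Egr1, Egr2 and Egr3. Pmp22, Mbp and Mal passed 2-fold downward at this step.

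Oligodendrocyte markers were mostly low, with 6 of 14 kept. Of these, 5 were over 2-fold above day 0 on day 14 and 1 below, against 24.5% and 19.9% of all genes kept. With a minimum of 50 counts 3 were above. Nkx2-2, Mobp and Opalin were at 0 in every library, and Mog had at most 3 expected counts. Olig1 was an exception with 0, 5, 2, 31 and 234 expected counts, and Gpr17 had 187 on day 10 and 78.1 on day 14. Myrf had 29, 212 and 97 on days 0, 10 and 14, and Cspg4, which fibroblasts and pericytes also use, 858, 330 and 98. The summed TPM of the 14 markers ran from 9.64 to 97.5.

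Fibroblast markers remained high, with a summed TPM of 1855, 1413, 5031, 9134 and 9441. On day 14, 5 of 12 were above and 3 below day 0, against 24.5% and 19.9% of all genes kept. Lum, Dcn and Col3a1 were 5.91, 4.86 and 3.87 (log2) above day 0 on day 14, and Twist2 was lower, at -2.71. Macrophage markers were present, with 9 of 10 kept and 7 above day 0 on day 10, against 28.7% of all genes kept. Their summed TPM was 37.1, 223, 487, 426 and 292, with Cd68 at 157 TPM on day 5 and Cd5l at 150 TPM on day 10, and Ptprc had at most 22 expected counts. Adgre1 and Tyrobp were 3.21 and 1.95 (log2) above day 0 on day 14. Of the 8 astrocyte markers kept 6 were above day 0 on day 14, including Aldh1l1 (4, 188 and 186 expected counts on days 0, 10 and 14), and of 9 neuron markers 5 were above and 3 below. Gap43, a growth cone protein also made by Schwann cell precursors, had 114, 1017 and 2697 expected counts, and Tubb3 was 2.81 (log2) above day 0 on day 14. Map2 and Stmn2 were lower, at -2.08 and -1.45. Among the 7 melanocyte markers 1 was kept, and their summed TPM was at most 13.7. Of the epithelial and endothelial markers, Krt19, Krt18 and Kdr were -6.57, -2.53 and -5.69 (log2) from day 0 on day 14.

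**Figure D5:**
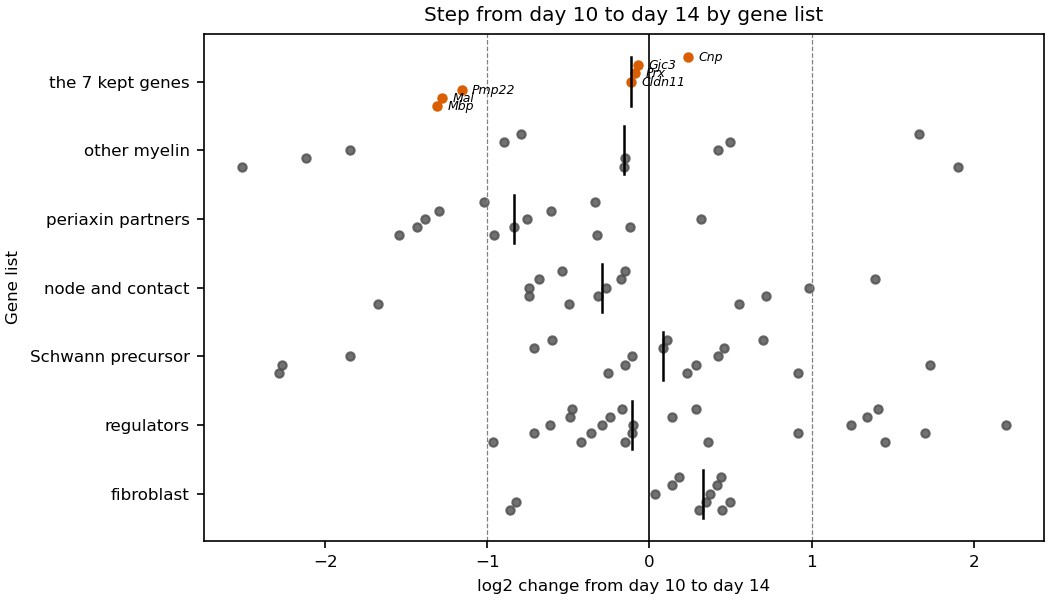
The log2 change from day 10 to day 14 (horizontal axis, TMM-normalized counts with 1 added) for the genes kept in each of 7 lists (vertical axis), 1 library per day. Each point is a gene, black bars are list medians and dashed lines mark 2-fold; Pmp22, Mbp and Mal lie to the left of the lower line, and the median of the periaxin partners is -0.84.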

How the data were processed

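RNA from 5 libraries of 1 per time point was sequenced after Trizol extraction and a TruSeq kit that does not mark strand. Per the labels, the submitters used Bowtie, RSEM and mm10; versions are not given in the sources used here. The deposited gene tables give RSEM expected counts (estimated counts), TPM and FPKM made by the authors. FPKM values deposited by the authors gave no result. In all rows the effective length equalled the length. Symbols for 27247 of 27729 genes and all coordinates came from GENCODE M21 (GRCm38), and promoters from RefSeq (GRCm38.p6).

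Expected counts were scaled with TMM factors (edgeR 4.0.16) over all libraries, without rounding. Genes with 10 or more expected counts in at least 1 library were kept. Log2 changes used a pseudocount of 1, levels between genes used TPM, and TPM changes added 0.1. Named genes were the members, Sox10, Egr2, up to 4 genes per list past 2-fold on day 14 with 100 or more counts, the 3 nearest genes per member, and family members of that depth; others named were picked for their role or after their values were seen, and some genes that the rule names are not reported here. The members and the lists were chosen with earlier results of these data known. The procedure was tested on simulated data. Alternatives were DESeq2 1.42.0 size factors, upper-quartile and quantile scaling, TPM, a pseudocount of 5, other count minimums, a 4-fold threshold, factors without the 10 most abundant genes per library and, added after seeing the data, TPM relative to the median gene. The labels put the last lysis on day 15 in the treatment text and day 14 in the library label, and the label was used.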

Additional observations from a re-analysis of the deposited data

How the results depend on the processing

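The number of members over 2-fold below day 0 on day 2, 2 as reported, was 1 with upper-quartile factors, 1 with quantile normalization, 1 with a pseudocount of 5 and 0 at a 4-fold threshold. The other counts of members past the threshold moved by less than 1.5 times under every alternative run, and no change past 2-fold took the opposite sign. Of 266 changes of single members under the alternatives, 236 lay inside their counting interval and 30 outside it, 18 of these with TPM. Some intervals were too wide for a value to fall outside easily. Those of Gjc3 and Fa2h against day 0 had no upper end, and that of Cldn11 on day 2 ran from -5.42 to 7.16 (log2). With a pseudocount of 5 the day 14 change of Gjc3 was 5.80 (log2) and that of Cldn11 6.20, both against a day 0 count of 0 or 1. Among all genes kept, the share of calls that lay above day 0 was 56.3% on day 10 and 55.2% on day 14 as reported, 88.5% and 85% with TPM, and 44.6% and 42.9% with TPM relative to the median gene. No paired analysis was possible because there was 1 library per time point, and for the same reason no library could be left out of a comparison. In the lists of related genes, the day 14 count above day 0 also moved with TPM for the PMP22 and EMP family without Pmp22 (1 to 2). With a minimum of 50 counts it moved for the connexins (2 to 1) and claudins (3 to 1) without the members, and for the melanocyte and the T cell and endothelial markers (1 to 0 each). Depth limits Fa2h, Prx and the day 0 levels of Mal, Gjc3 and Cldn11.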
